A study of Homo sapiens with 3 samples.

Results

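The RNA bound by 2 ribosomal proteins was examined in 9 human cyclin genes, CCNF, CCNA2, CCNB1, CCNB2, CCND1, CCND2, CCND3, CCNE1 and CCNE2, out of 59675 genes placed on chromosomes in the RefSeq table. The genes were given as a list of names. The list was chosen by the summit numbers of CCNF, which differed strongly between the libraries in an earlier look at these files, so those numbers are a description and no test was run. The members held 52 of 154000 peaks in one library and 75 of 254413 in the other.

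The samples were cells of HCT116, a colorectal carcinoma line of long standing, kept in McCoy's 5A medium with serum, and they carried HaloTag alone, RPL22-HaloTag or RPL22L1-HaloTag, with 1 library each. RPL22 belongs to the large subunit of the ribosome, RPL22L1 is the paralog of RPL22, and HaloTag is an enzyme tag that binds its ligand covalently. Bound RNA was recovered by GoldCLIP, a gel-free form of crosslinking and immunoprecipitation that holds the tagged protein on beads through the tag. Peak lists of the 2 fusion libraries were used, here called the RPL22 list and the RPL22L1 list, and the library with HaloTag alone was not analysed here, which leaves the values without its background. How the tagged genes were introduced, and whether the cells were a clone, is not given in the sources used here.

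Cyclins are regulatory proteins whose levels rise and fall through the cell cycle. D-type cyclins bind CDK4 and CDK6 in G1 and E-type cyclins bind CDK2 at the entry into S phase. Cyclin A2 binds CDK2 and CDK1 in S and G2 phase, and the B-type cyclins bind CDK1 in mitosis. Cyclin F, the product of CCNF, is an exception. It is not known to activate a CDK but carries an F-box, through which it joins SKP1 and CUL1 in an SCF ubiquitin ligase and brings substrates such as RRM2, CDC6 and SLBP to it.

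The reference held sequence only around annotated gene starts, and no member peak touched these windows. A few peaks that lay there are shown, because they put letters on peaks at the starts of cyclin A2 and of partners of the cyclins. They were chosen for having their sequence at hand, after their values were seen. Each is given on the strand of the gene, from RefSeq GRCh38.p14, with bases at or after the annotated start in capitals. The lists give no strand, so the strand of the bound RNA is unknown.
CCNA2, RPL22L1 peak, chr4:121823966-121823995: cttcactcgcctgcgaccctgtcgccttga
CDK1, RPL22L1 peak, chr10:60778482-60778511: TTGGCTTCAAAGCTGGCTCTTGGAAATTGA
SLBP, RPL22 peak, chr4:1712280-1712309: AGCGCCGGCGCGGGGACGCGGGTTTCTGCC
CUL1, RPL22 peak, chr7:148698370-148698399: GGTGGTGTCCCCGACCCAAGCAGCTCAGCC
SKP1, bases shared by both lists, chr5:134176907-134176936: GTCTTCGGTTTTTCTCTTCCTTCGCTAACG
RBL1, RPL22 peak, chr20:37096125-37096154: gaatctgaggtacatcttcttatcacattt
RBL1, RPL22L1 peak, chr20:37096119-37096148: gaggtacatcttcttatcacatttccgggg
The CCNA2 peak lay upstream of the annotated start, with its summit 98 bases outside the gene, and is not among the member peaks. The CDK1, SLBP and CUL1 peaks lay just after an annotated start. For CDK1 and CUL1 this start lay inside the gene, whose bounds begin at 60778331 and 148697756. The peaks of RBL1, the gene of the pocket protein p107, shared 24 bases and lay upstream of the start. The SKP1 stretch comes from a strong peak pair described further on.

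A summit is the base of a peak that the deposited list marks as its highest point, and a summit was counted for a gene when it lay within the RefSeq bounds. In the RPL22 list all 9 cyclin genes held a summit, while 68.3% of the 20033 protein-coding genes did. In the RPL22L1 list 8 of the 9 did, all but CCND2, against 69.8% of protein-coding genes. The median number per member was 4 for RPL22 and 7 for RPL22L1, and over all protein-coding genes it was 3 and 4. Per kb of gene the member medians were 0.270 and 0.503 summits, beside 0.0992 and 0.128 over all protein-coding genes. The lists hold no measure of how much of each RNA the cells contained, so little binding and little RNA cannot be told apart in any of these genes.

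**Figure D1:**
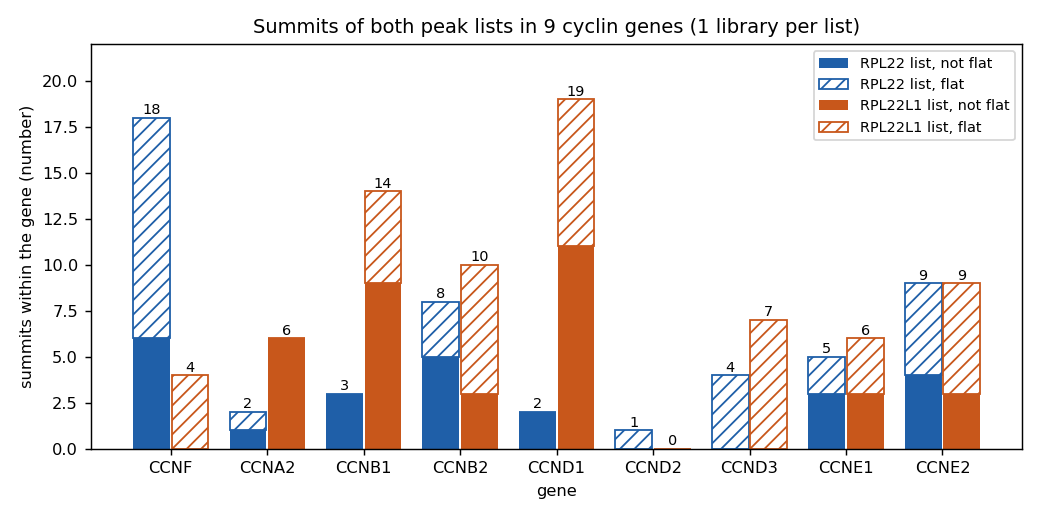
Number of summits within each of 9 cyclin genes, in the RPL22 list (blue) and the RPL22L1 list (orange), 1 library each, with flat peaks hatched. CCNF holds 18 and 4 summits, whereas CCND1 holds 2 and 19 and CCNB1 3 and 14. In lists of equal size, not plotted here, these numbers are 18 and 1, 2 and 8, and 3 and 6.

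The lists differed in length, 154000 and 254413 peaks, so gene numbers were also set side by side in lists of equal size, with the RPL22L1 list cut down to its 154000 highest scores. The log2 ratio is that of the RPL22L1 number plus 1 over the RPL22 number plus 1 in these lists. Over the 7836 protein-coding genes that reached 10 summits when both lists were added up, the median log2 ratio was 0, and it was above 1 in 6.19% and below -1 in 8.89%. Of the 9 cyclin genes 5 had that many summits. The ratio was above 1 in CCND1 and below -1 in CCNF, and the other 3, CCNB2, CCND3 and CCNE2, had ratios of -0.17, 0.49 and -0.32. The members were chosen with this ratio known, so nothing is read from these counts.

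**Figure D2:**
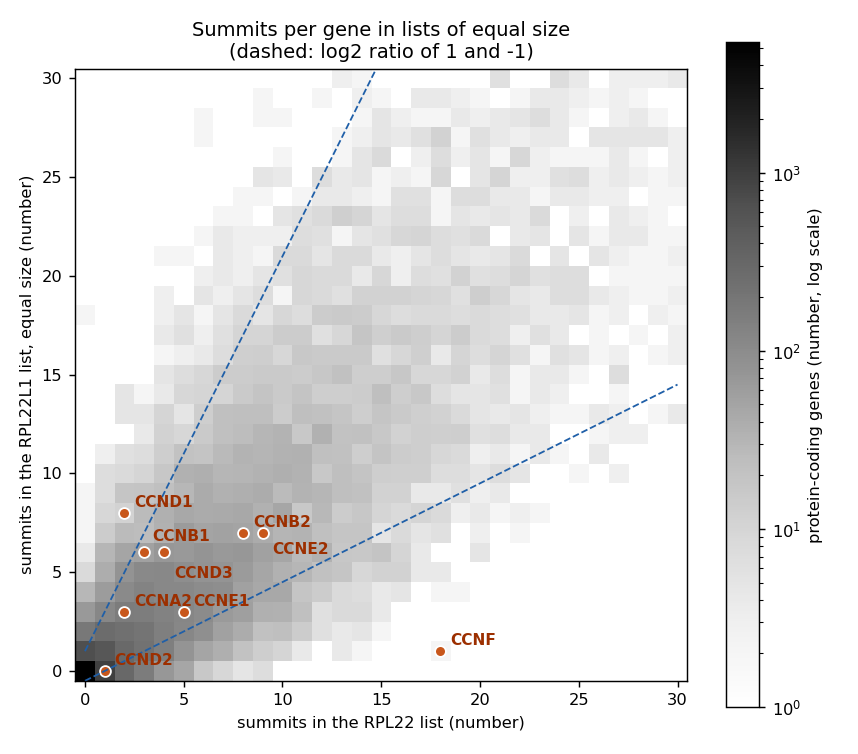
Summits per protein-coding gene in lists of equal size, with the RPL22 number on the horizontal and the RPL22L1 number on the vertical axis, up to 30 in each. Grey squares give the number of genes on a log scale, orange points mark the 9 cyclin genes and dashed lines a log2 ratio of 1 and -1. CCNF lies at 18 and 1, below the lower line, and CCND1 at 2 and 8, above the upper one.

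CCNF lies on the forward strand of chromosome 16, at 2429447 to 2458854. The RPL22 list had 18 summits there and the RPL22L1 list 4, or 0.612 and 0.136 summits per kb. Of all protein-coding genes, 6.02% held more RPL22 summits per kb than CCNF and 49.2% held more RPL22L1 summits per kb. In lists of equal size the numbers were 18 and 1, a log2 ratio of -3.25, and 4 of the 7836 genes, CCNF included, had a ratio that low or lower.

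None of the 18 RPL22 peaks in CCNF overlapped an RPL22L1 peak, while 17.4% of all RPL22 peaks did. CCNF was chosen for its summit numbers and held only 4 RPL22L1 peaks, so nothing is read from this count. The distance from an RPL22 peak to the nearest RPL22L1 peak ranged from 7 to 4056 bases with a median of 1329, and 11 of the 18 were more than 1000 bases away. The closest approach was between the RPL22 peak at 2457841 to 2457903 and the RPL22L1 peak at 2457804 to 2457833, with 7 bases between them. So both lists had a peak near the end of CCNF, but not on the same bases.

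In score, most RPL22 peaks of CCNF reached the median of their list, as most peaks of that list did, and 1 of the 4 RPL22L1 peaks did. The score is the authors' own value for each peak, given per library, and was used only to rank peaks within a list. RPL22 scores in CCNF ran from 21 to 81 with a median of 33, which is also the median of the whole list, and 11 of 18 were at or above it, beside 60.6% of all RPL22 peaks. The highest, at 2435816 to 2435845, had rank 27427, within the top 17.8% of the list. Then came scores of 74 at 2447169 to 2447198 and of 72 at both 2443681 to 2443788 and 2457295 to 2457324. The RPL22L1 scores were 18, 25, 65 and 205, and the last of these had rank 59470, within the top 23.4%. Only this peak reached the median score of its list, 124, and only it remained in the list of equal size.

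A peak was called flat when it was 30 bases wide with its summit offset at 15, that is, at its centre. Over the whole lists 64.9% of RPL22 and 77.9% of RPL22L1 peaks were flat. In CCNF 12 of 18 RPL22 peaks and all 4 RPL22L1 peaks were flat. Of the flat RPL22 peaks 4 had a score of 21 and 3 a score of 33, values that 43393 and 24661 peaks of the whole list held. The 6 peaks that were not flat included the widest of the gene, 108 bases at 2443681 to 2443788, and peaks of 70 bases at 2438083 to 2438152 and of 63 bases at 2457841 to 2457903. No RPL22L1 peak of CCNF was wider than 30 bases.

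Of the 18 RPL22 summits of CCNF 4 lay in the first of 3 equal parts of the gene, 3 in the middle and 11 in the last. The last part thus held 61.1%, beside 39.9% over all protein-coding genes with a strand, and without flat peaks the numbers were 3, 1 and 2. A run of 6 of them lay between 27390 and 29240 bases from the gene start, in a gene of 29408 bases. All 6 also lay within LOC105371050, a long non-coding RNA gene on the reverse strand at 2456066 to 2459978, as did the RPL22L1 peak with the score of 205. The lists give no strand, so RNA of CCNF and of LOC105371050 cannot be told apart there, and outside LOC105371050 the numbers in the 3 equal parts were 4, 3 and 5. With each summit given to the shortest gene around it, CCNF held 12 RPL22 and 3 RPL22L1 summits. The microRNA gene MIR6767, inside CCNF, held none. The nearest summits outside the bounds lay 1128 bases before and 435 bases after the gene for RPL22, and 883 and 1859 bases away for RPL22L1.

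**Figure D3:**
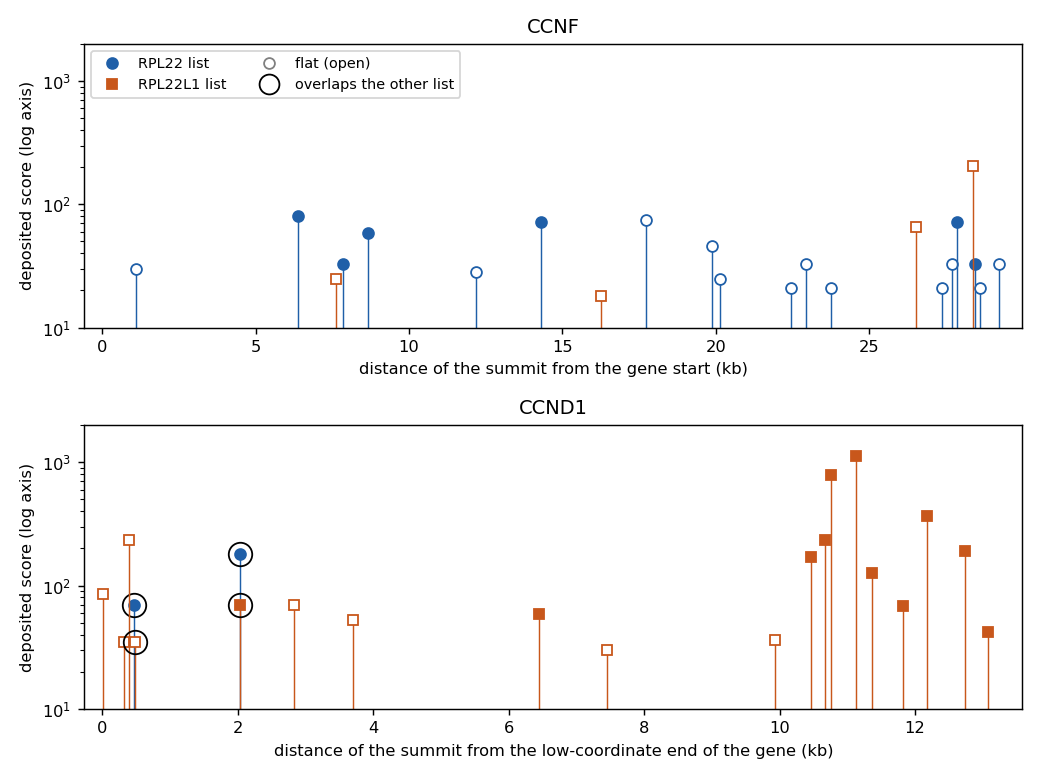
Summits along CCNF (top, kb from the gene start) and CCND1 (bottom, kb from the low-coordinate end), with the deposited score on a log axis. Blue circles are the RPL22 list, orange squares the RPL22L1 list, open symbols flat peaks and black rings peaks that overlap the other list. In CCNF no peak is ringed, and in CCND1 the 9 RPL22L1 summits beyond 10000 bases have no RPL22 counterpart.

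The protein-coding genes most like CCNF were taken as those nearest to it in the numbers of flat and other summits in both lists, as the distance over 4 values of log2 of the number plus 1. These rest on 1 library each. They were TBL3, ABCA2, MGRN1, KCNIP2 and RARA, with distances from 0.339 to 0.499. TBL3 held 19 RPL22 and 3 RPL22L1 summits and MGRN1 15 and 5, and both lie on chromosome 16 as CCNF does. ABCA2 on chromosome 9 held 19 and 5, KCNIP2 on chromosome 10 15 and 3, and RARA on chromosome 17 15 and 4. None of these 5 genes held an RPL22L1 peak that was not flat, and neither did CCNF. That number was among the 4 values used to choose them, so nothing is read from it.

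The mitotic cyclins A and B were the group with more RPL22L1 than RPL22 summits in every member. Together CCNA2, CCNB1 and CCNB2 held 13 RPL22 and 30 RPL22L1 summits, with 9 and 18 that were not flat. The numbers were 13 and 16 in lists of equal size. Their difference in the whole lists thus lay mostly in the lower-scoring RPL22L1 peaks.

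CCNB1, the main partner of CDK1 at mitotic entry, lies on chromosome 5 at 69167150 to 69178245. It held 3 RPL22 summits, none flat, and 14 RPL22L1 summits, 9 of them not flat. With the lists at equal size it held 3 and 6, a log2 ratio of 0.81 in a gene under the minimum of 10 summits. In the whole lists CCNB1 held 0.270 and 1.26 summits per kb, and 3.76% of protein-coding genes held more RPL22L1 summits per kb. Its highest RPL22L1 peak, at 69174966 to 69175034, scored 681 and stood at rank 4754, in the top 1.87%. The next, at 69168013 to 69168103, scored 387 and had rank 14837. The RPL22 peaks scored 72, 59 and 77, all within the top 24.6% of their list.

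The RPL22 peaks of CCNB1 stood close to RPL22L1 peaks even where they did not overlap. The peak at 69168178 to 69168207 shared 18 bases with an RPL22L1 peak, and their summits were 2 bases apart. The one at 69174350 to 69174379 lay between flat RPL22L1 peaks, 10 and 11 bases away. The one at 69167958 to 69167997 lay 15 bases before the RPL22L1 peak with the score of 387, but their summits were 114 bases apart. Of the 14 RPL22L1 summits 6 lay in the last of the 3 equal parts, or 42.9%, beside 41.9% over all protein-coding genes with a strand, and none of the 3 RPL22 summits did.

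CCNB2, on chromosome 15 at 59105146 to 59125045, was the member with the most shared sites. It held 8 RPL22 and 10 RPL22L1 summits, 8 and 7 in lists of equal size, and 3 peaks of each list overlapped. The overlapping summits were 9, 4 and 26 bases apart. The last pair lay at the very end of the gene and began on the same base, at 59124928 to 59124962 with a score of 115 in the RPL22 list and at 59124928 to 59124982 with a score of 334 in the RPL22L1 list. CCNB2 also held the highest-ranked RPL22 peak of the 9 member genes, at 59105212 to 59105244, with a score of 185 and rank 7912. It lay 82 bases from the gene start and 376 bases from the nearest RPL22L1 peak. The highest RPL22L1 peak, at 59117280 to 59117330 with a score of 452, was 2754 bases from the nearest RPL22 peak.

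CCNA2, on the reverse strand of chromosome 4 at 121816444 to 121823883, held 2 RPL22 and 6 RPL22L1 summits. None of the RPL22L1 peaks in the gene was flat, and the widest, at 121819440 to 121819552, spanned 113 bases with a score of 159. RPL22L1 scores ran from 17 to 195. The RPL22 peak at 121818825 to 121818882 lay 4 bases from an RPL22L1 peak, and no pair overlapped. EXOSC9 overlaps the end of CCNA2, and 2 of the 6 RPL22L1 summits lay in both genes. Of the 6, 4 lay in the last of the 3 equal parts of CCNA2 and none in the first.

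The D-type cyclins were unlike each other. CCND1, CCND2 and CCND3 held 2, 1 and 4 RPL22 summits and 19, 0 and 7 RPL22L1 summits. Per kb the RPL22L1 numbers were 1.43, 0 and 0.0608. Per kb in the whole list CCND1 was thus the richest of the 9 member genes in RPL22L1 summits, and the other D-type genes were the poorest of the 9. In the list of equal size CCNF held 1 in 29408 bases and CCND3 6 in 115103, so the poorest genes were not the same there.

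CCND1, on chromosome 11 at 69641156 to 69654474, had a log2 ratio of 1.58 from 2 and 8 summits in lists of equal size, and 2.65% of protein-coding genes held more RPL22L1 summits per kb. Of its 19 RPL22L1 summits, 9 lay more than 10000 bases from the low-coordinate end of the gene, and all 9 were from peaks that were not flat. The RPL22 list held no summit there. This stretch included the highest-ranked RPL22L1 peak of the 9 member genes, at 69652265 to 69652301. That peak scored 1122 and stood at rank 1701, in the top 0.669%. Next in score within the stretch were peaks at 69651892 to 69651921 with a score of 793 and at 69653259 to 69653343 with a score of 370. In the list of equal size 7 of the 9 remained. The reference used here gave no strand for CCND1, so positions are given from the low-coordinate end.

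Both RPL22 peaks of CCND1 overlapped RPL22L1 peaks, at the other end of the gene. The RPL22 peak at 69643171 to 69643255 scored 180 and stood at rank 8603, and its summit was 3 bases from that of an RPL22L1 peak with a score of 69 and rank 186106. The other RPL22 peak, at 69641614 to 69641643, scored 70, and its summit was 6 bases from that of a flat RPL22L1 peak with a score of 35. A flat RPL22L1 peak at 69641154 to 69641183 straddled the low-coordinate bound, with its summit 13 bases inside.

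CCND3, on the reverse strand of chromosome 6 at 41934933 to 42050035, is the longest of the 9 genes with 115103 bases. All of its 4 RPL22 and 7 RPL22L1 peaks were flat and none overlapped. RPL22 scores ran from 21 to 33 and RPL22L1 scores from 98 to 364, and the highest RPL22L1 score had rank 16979. LOC105375059, a long non-coding RNA gene on the forward strand, held 1 of these summits in each list. CCND2, on chromosome 12 at 4273762 to 4305353, held a single flat RPL22 peak at 4296315 to 4296344 with a score of 45. The RPL22L1 list held none in this gene of 31592 bases, and its nearest summit lay 2992 bases outside.

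The E-type cyclins held nearly equal numbers in both lists. CCNE1 and CCNE2 together held 14 RPL22 and 15 RPL22L1 summits, with 7 and 6 that were not flat, and 3 peaks of each list overlapped. The numbers were 14 and 10 in lists of equal size. CCNE1, on chromosome 19 at 29811991 to 29824312, held 5 and 6. Its highest RPL22 peak, at 29824223 to 29824274 with a score of 135 and rank 13017, lay at the end of the gene and shared 20 bases with a flat RPL22L1 peak with a score of 75. The highest RPL22L1 peak, at 29817414 to 29817444 with a score of 512 and rank 8557, was 851 bases from the nearest RPL22 peak.

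CCNE2, on chromosome 8 at 94880224 to 94896693, held 9 summits in each list, and 9 and 7 in lists of equal size. Its highest RPL22 peak, at 94892886 to 94892967 with a score of 102, shared 17 bases with the RPL22L1 peak at 94892856 to 94892902, which had a score of 674 and rank 4818. The highest RPL22L1 peak, at 94883961 to 94884037 with a score of 861 and rank 3006, was 2284 bases from the nearest RPL22 peak. INTS8 overlaps the low-coordinate end of CCNE2, and 2 summits of each list lay in both genes, the other overlapping pair among them.

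**Figure D4:**
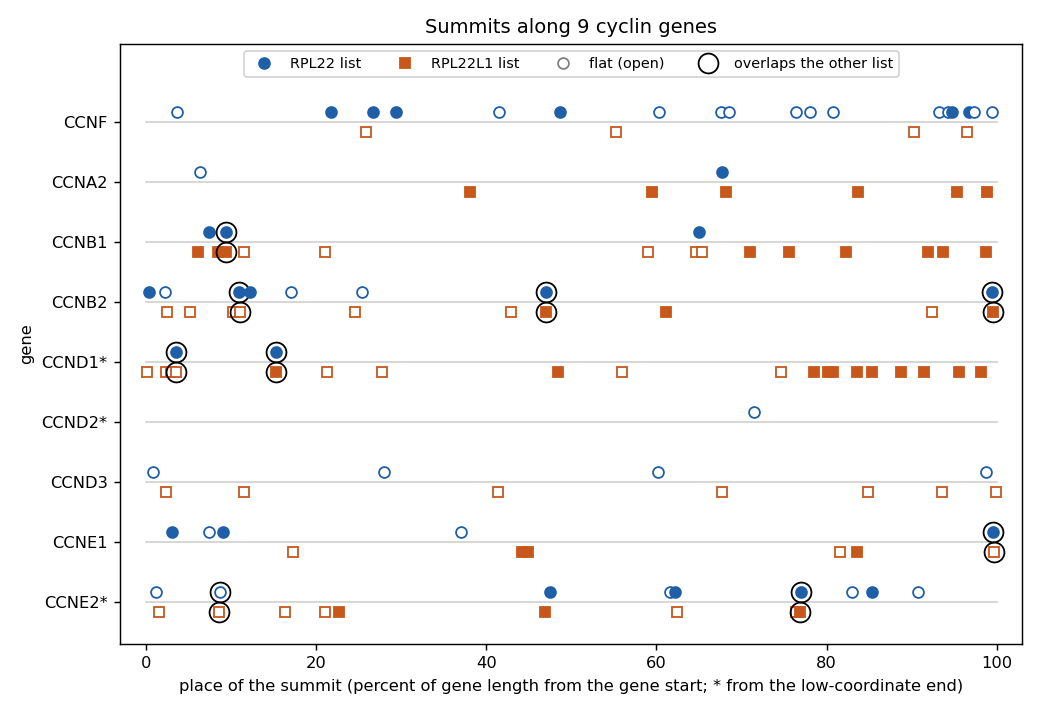
Place of each summit along the 9 cyclin genes, as percent of gene length from the gene start, or from the low-coordinate end for the genes with an asterisk. Blue circles are the RPL22 list, orange squares the RPL22L1 list, open symbols flat peaks and black rings peaks that overlap the other list. Overlaps lie in CCNB1, CCNB2, CCND1, CCNE1 and CCNE2, and the end of CCNB2 and of CCNE1 holds 1 pair each.

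Over all 9 genes, 9 of 52 RPL22 peaks overlapped an RPL22L1 peak, or 17.3% (exact Clopper-Pearson 95% interval 8.23 to 30.3%). The share over the whole RPL22 list was 17.4%. In the RPL22L1 list 9 of 75 did, or 12% (5.64 to 21.6%), beside 10.6% over the whole list. These shares were close to those of the whole lists. But 18 of the 52 RPL22 peaks came from CCNF, which was chosen for its summit numbers, so no level of overlap in cyclin genes is read from them. The overlapping peaks lay in 5 genes, and without CCNF the RPL22 share was 26.5% of 34 peaks. Summits within 50 bases of one in the other list numbered 13 of 52, or 25.0%, and 14 of 75, or 18.7%, beside 18.8% and 11.4% over the whole lists. The intervals cover counting error only, and peaks of a gene share its RNA and are not replicates.

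Overlap was more frequent among RPL22 peaks that were not flat. Of these 8 of 24 overlapped, or 33.3% (15.6 to 55.3%), and 39.2% did over the whole list. Of the 28 flat RPL22 peaks 1 did, beside 5.59% of flat peaks over the whole list. In the RPL22L1 list 5 of 35 peaks that were not flat overlapped, or 14.3% (4.81 to 30.3%), beside 26.0% over the whole list. Of the 40 flat RPL22L1 peaks 4 did, beside 6.23% of flat peaks over the whole list. The flat share itself was 53.8% (39.5 to 67.8%) of the RPL22 peaks and 53.3% (41.4 to 64.95%) of the RPL22L1 peaks. Over the whole lists it was 64.9% and 77.9%. Of the other peaks, 12 and 14 were 30 bases wide with the summit off centre, by 1 base in 1 RPL22 peak and by more in the rest.

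In the 6 genes whose strand the reference gave, 18, 7 and 15 of 40 RPL22 summits lay in the first, middle and last of the 3 equal parts. That is 45.0%, 17.5% and 37.5%, beside 31.2%, 29.0% and 39.9% over 15841 protein-coding genes with a strand. The RPL22L1 summits in these 6 genes numbered 14, 12 and 21 of 47, or 29.8%, 25.5% and 44.7%, beside 29.1%, 29.0% and 41.9%. Without flat peaks the RPL22 numbers were 10, 3 and 5 of 18, or 55.6%, 16.7% and 27.8%, beside 26.9%, 28.0% and 45.1% over all these genes. The RPL22L1 numbers were 3, 6 and 12 of 21, or 14.3%, 28.6% and 57.1%, beside 23.8%, 28.1% and 48.1%. Summits of a gene share its RNA, so these shares rest on at most 6 genes.

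A wider list of 70 cell-cycle genes was described in the same way. It held CDKs, CDK inhibitors, the RB and E2F families, SCF ligase subunits together with CKS1B and CKS2, and reported targets and partners of cyclin F. Mitotic regulators and other cyclins made up the rest. The RPL22 list had a summit in 64 of them and the RPL22L1 list in 67. Of 51 with at least 10 summits in lists of equal size, 6 had a log2 ratio above 1, or 11.8%, and 1 had a ratio below -1, or 1.96%, with a median of 0.26. Over all protein-coding genes with that many summits the shares were 6.19% and 8.89% and the median 0. Their peaks overlapped the other list in 25.2% of 773 RPL22 and 12.8% of 1517 RPL22L1 cases, beside 17.4% and 10.6% over the whole lists.

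The highest-ranked peaks of the wider list lay in SCF subunits, CDK1 and other cyclins. SKP1, the adaptor that binds the F-box, held the highest-ranked RPL22 peak of the 70 genes, at 134176837 to 134176949 on chromosome 5, with a score of 1443 and rank 527. It contained the whole of the RPL22L1 peak at 134176880 to 134176936, which had a score of 867 and rank 2909, and part of these shared 57 bases is printed above. CDK1 on chromosome 10 held 10 RPL22 and 22 RPL22L1 summits, the highest at ranks 822 and 619, and 8 of its RPL22 peaks overlapped. RBX1, the RING subunit of the ligase, held 9 and 13, and its highest RPL22L1 peak had a score of 2080 and rank 694. Of the 8 genes in the SCF list 7 had enough summits, and none of these had a log2 ratio below -1. CKS2, which was listed beside the ligase subunits and is not counted here as one of them, was the one above 1, at 1.74. Over all protein-coding genes with that many summits, 8.89% were below -1 and 6.19% above 1. Nothing is read from counts this small.

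Among the 8 targets and partners of cyclin F, 6 had enough summits and 1, MYBL2, had a ratio below -1. Over all protein-coding genes with that many summits 8.89% did, so nothing is read from this count. MYBL2, a transcription factor of late cell-cycle genes, held 22 RPL22 and 13 RPL22L1 summits, 22 and 10 in lists of equal size. Its log2 ratio was -1.06, and -0.72 with whole lists. RRM2, the small subunit of ribonucleotide reductase, held 17 and 24 summits with a log2 ratio of -0.36. SLBP, which binds the stem-loop of histone mRNA, held 6 and 19 with a log2 ratio of exactly 1. PKMYT1 and PLK1, mitotic kinases on chromosome 16, came next after MYBL2 towards the RPL22 list, with log2 ratios of -1 and -0.89.

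Of 14 other cyclins, 11 had enough summits, with a median log2 ratio of 0.77. In 3, CCNL2, CCNG2 and CCNG1, the ratio was above 1 and in 0 below -1, beside 6.19% and 8.89% of all protein-coding genes with that many summits. The other 8 were past neither bound, and CCNT2 among them had a ratio of exactly 1. CCNL2, a cyclin of splicing kinases, held 1 RPL22 and 14 RPL22L1 summits, 1 and 10 in lists of equal size, a log2 ratio of 2.46. Its single RPL22 peak, at 1395382 to 1395424 on chromosome 1, had a score of 953 and rank 735 and overlapped the RPL22L1 peak at 1395384 to 1395437, which had a score of 3067 and rank 493. CCNG2 and CCNG1 held 2 and 4 RPL22 and 16 and 24 RPL22L1 summits, with log2 ratios of 1.87 and 1.85. CCNC, the cyclin of the Mediator kinase, held an overlapping pair with ranks of 554 and 1099 at 99549507 to 99549553 and 99549486 to 99549552 on chromosome 6, where the pseudogene TSTD3 lies as well. The number of reads behind either list is unknown, so depth could not be set against any of these numbers.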

How the data were processed

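GoldCLIP peak lists of RPL22-HaloTag and RPL22L1-HaloTag HCT116 cells were used, 1 library per group by the genotype in the labels. Each deposited list had 10 columns, of which position, score and summit offset were used. The score is the authors' whole-number value per peak, and its scale is not stated. The submitters' processing notes name cutadapt 4.8, STAR 2.7.10a, UMI-tools 1.1.5, MACS3 3.0.0a6 and hg38, without parameters or the control used in peak calling. Positions are counted from 1 and were joined to RefSeq GRCh38.p14.

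A summit counted for every gene that contained it. Lists of equal size kept the highest RPL22L1 scores, down to 98, with ties kept by sequence name and position. Ratios used the number plus 1 and at least 10 summits. Overlap meant at least 1 shared base. Gene starts and strands came from RefSeq start windows, which 6 of the 9 cyclin genes had. With 1 library per group no test was run, and no p-value is given. Members, gene lists and rules were chosen with earlier results of these data known. Named genes were the 9 cyclins, of the wider list the 3 with the highest rank in each list and the 3 with the largest ratios in each direction, and the 5 nearest to CCNF. RRM2, SLBP, CUL1, RBL1, CKS2, CDK2, CDK4, CDK6, CDK7 and the neighbours of CCNF were added after their values were seen. Alternatives were a stricter score limit, no flat peaks, lists of whole or equal size, the shortest gene, merged peaks, tied peaks, a smaller added number and other definitions of overlap. Counting and overlap code was tested on simulated data. Work was done in Python 3.11.15, with pandas 2.3.3 and numpy 2.4.6, intervals from scipy 1.17.1 and plots from matplotlib 3.10.9.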

Additional observations from a re-analysis of the deposited data

How the results depend on the processing

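Of 38 alternative values for the main numbers 30 stayed, meaning within 1.5-fold for counts and ratios or within the interval for shares, and 8 moved. Without flat peaks the 9 genes held 24 RPL22 and 35 RPL22L1 summits in place of 52 and 75. The RPL22L1 number was 38 from the list's median score upwards and 41 in the list of equal size. With whole lists the log2 ratio of CCNF was -1.93 in place of -3.25, and 2 members, CCND1 and CCNB1, were above 1. Without flat peaks CCNF had a log2 ratio of -2.81 from 6 summits, under the minimum of 10, so 0 members were below -1. With each summit given to the shortest gene, an alternative added after the data were seen, it was -3.70. With both lists cut at their median scores, 8.11% of 37 RPL22 peaks in the members overlapped. The cut also removes RPL22L1 peaks that could be overlapped, and the share over all peaks under it was not computed. So nothing is read from this value about higher-scoring RPL22 peaks. These shifts follow from the number of peaks or genes each setting counts, and beyond that the cause was not tested. Of 114 values for single genes 87 stayed and 27 moved. Equal size removes no RPL22 peak, so the unchanged RPL22 numbers under it are no sign of stability. No paired analysis was possible because each group holds 1 library. Depth is unknown, so its limit on these numbers could not be given.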

Other observations

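The surroundings of CCNF were counted after its values were seen. Within 250 kb on either side, with CCNF left out, the RPL22 list held 88 summits and the RPL22L1 list 87, or 56 in the list of equal size. On the whole of chromosome 16 the numbers were 5535 and 7264, or 4565. In CCNF they were 18 and 4, or 1. Among the neighbouring genes MLST8, a subunit of the mTOR complexes, held 8 and 1, or 0, TEDC2 4 and 2, or 1, and AMDHD2 4 and 1, or 1. RNPS1, a splicing factor of the exon junction complex, held 10 and 15, or 12, and TBC1D24 held 8 and 8, or 7. A low RPL22L1 number was thus seen in some genes around CCNF and not in others, and only a few of these genes are named here.

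The CDK genes ranged from none to many summits. CDK7, the kinase that activates other CDKs, held 0 summits in both lists in 42636 bases. CDK2 and CDK4, the partners of the E-type and D-type cyclins, held 0 RPL22 summits and 4 and 2 RPL22L1 summits. CDK6, the other partner of the D-type cyclins, held 35 and 89 in a gene of 231653 bases.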
